A study of Homo sapiens with 8 samples.

Results

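The nucleoporins and nuclear transport receptors described here are 52 genes of the 14884 that the arrays measured with 1 gene symbol. They were taken by name: every gene whose symbol begins with NUP and a digit, XPO, IPO, KPNA, KPNB, TNPO or RANBP. The pattern matched 53 genes, and the pseudogene NUP210P1 was left out. Of the 52 members 51 code for protein and 1, NUP50-DT, is a non-coding transcript that starts beside NUP50. XPO1, KPNA2, NUP62 and XPOT are among the genes of these families not analysed here. All 52 members entered the fit, since no filter on dim genes was applied.

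The cells were PC-3, a line grown from a human prostate cancer that does not need androgen, and RNA of 8 isolated clones went onto 8 Affymetrix arrays, 1 per clone. The RWDD4 group held clones 17, 24, 5 and 6, which carried a lentiviral p-Lenti vector with the RWDD4 gene. The control group held clones 2, 3, 4 and 5, which carried the same vector without an insert, and both groups had passed blasticidin selection. Each clone is a single isolate, so p-values measure the spread between isolates of the same line. Values are the authors' deposited log2 values, which compare a gene between arrays and do not rank 1 gene against another. Each array read the bulk RNA of a clone, so a different mix of cells, such as cells in another phase of the cycle, cannot be told apart from a different amount of RNA per cell.

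RWDD4 itself lay at 10.42, 10.45, 10.46 and 9.87 in the RWDD4 clones and at 6.64, 7.58, 7.21 and 8.0 in the control clones, without overlap. Its rise was 2.94 (SE 0.25, adjusted p 5.98e-05 by limma). The epithelial keratins KRT18 and KRT19 averaged 10.61 and 10.24 in the RWDD4 clones, against 11.01 and 10.78 in controls, and both fell (by 0.40 and 0.54), as did KRT8. EPCAM, the other measured epithelial marker, lay at 0.13 (adjusted p 0.520 by limma). The prostate marker KLK3, known to be low in PC-3, averaged 5.76 in the RWDD4 clones and 5.81 in controls. Of the 5 measured markers of blood, endothelial and fibroblast cells, 4 fell (CD14, CD68, VWF and THY1, by 0.31 to 0.42) and PECAM1 lay at -0.13. CD14 (means 4.09 in RWDD4 and 4.51 in control clones) and VWF (4.53 and 4.84) were dim, under 4.92, the median over all probe sets and arrays. The groups of CD68 overlapped (adjusted p 0.0488 by limma). The part of these markers in the results was not tested. The median over the 14884 genes ranged from 6.09 to 6.13 among RWDD4 clones and from 5.89 to 6.03 among control clones.

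The nuclear pore is a ring-shaped channel through the nuclear envelope, built from many copies of each nucleoporin. Scaffold proteins form outer and inner rings, and proteins with phenylalanine-glycine (FG) repeats line the channel and filter what passes. Importins and exportins carry cargo through it. The small GTPase Ran, loaded with GTP in the nucleus and made to hydrolyse it in the cytoplasm, tells them where to bind and where to let go.

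Most of these genes were higher in the RWDD4 clones. Of the 52 members 37 rose (71.2%) and 2 fell, by limma at a Benjamini-Hochberg adjusted p under 0.05 over all 14884 genes. Among all genes 25.1% rose and 21.6% fell, or 46.7% called in either direction against 75% of the members. The median difference of the members was 0.97 on the log2 scale, against -0.08 over all genes. In 24 members the rise was at least 2-fold, a size that 9.74% of all genes reached. The groups did not overlap in 35 members that were higher and 2 that were lower, against 23.7% and 21.1% of all genes. The members XPO6 and NUP188 passed the test although their groups touched. The other 13 members did not pass.

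A further fit took in, as a covariate, where every array lay along the main direction in which clones of a group differ, and by limma with the same adjustment all 39 calls were lost. In that fit 37 members still had a positive difference, and the median of the 52 members was 0.22, against -0.03 over all genes. At an unadjusted p under 0.05 by limma 21 members passed, 19 of them higher and 2 lower. For these counts the shares over all genes were not taken, so they cannot be set against a background. This axis held 38.9% of the within-group variation over all genes. RWDD4 clones spanned 19.7 to 35.9 on it, and control clones -58.4 to -12.2, so the groups parted on it too, and axis and group cannot be told apart in full.

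**Figure D1:**
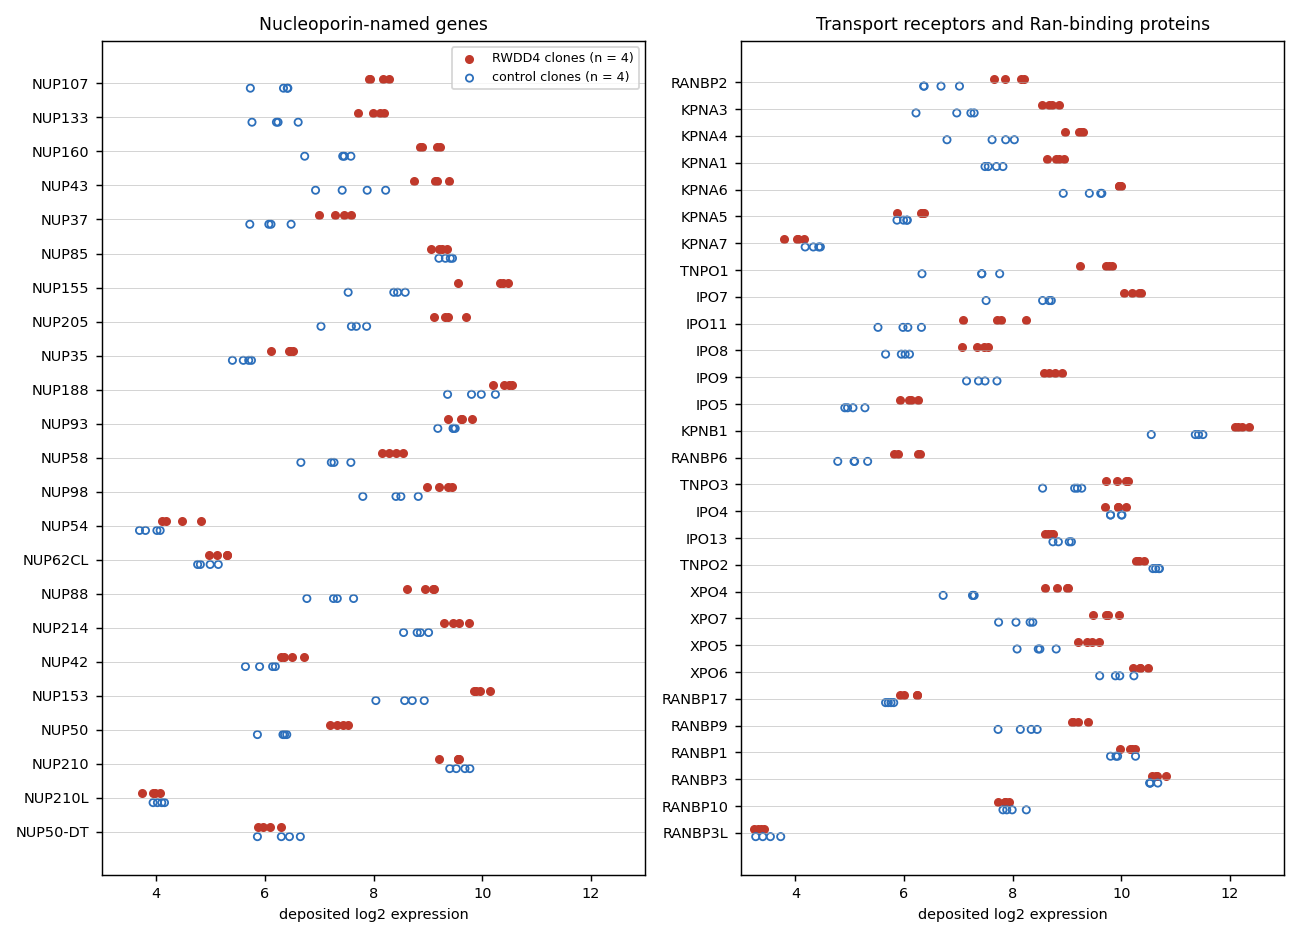
Deposited log2 expression (x axis) of the 52 members in each clone, with nucleoporin-named genes on the left and transport receptors and Ran-binding proteins on the right. Filled red points are the 4 RWDD4 clones and open blue points the 4 control clones. In 35 members every red point lies right of every blue point, and in TNPO2 and KPNA7 every red point lies left.

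Values below are given in the order of clones 17, 24, 5 and 6 for the RWDD4 group and of clones 2, 3, 4 and 5 for the control group, on the log2 scale. Differences are RWDD4 minus control clones with the standard error (SE) of the fit, and each adjusted p is from limma.

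The Y complex is the scaffold unit that repeats to build the outer rings of the pore, and 5 of its 6 measured NUP members rose (median difference 1.61). NUP107, which sits in the stem of the Y, had 7.91, 7.94, 8.29 and 8.18 in the RWDD4 clones and 5.73, 6.41, 6.42 and 6.34 in the control clones. Its 2 groups lay far apart, with clone 2 lowest among the controls. This gave 1.85 (SE 0.16), a 3.62-fold rise (adjusted p 5.98e-05). Its stem partner NUP133 rose by 1.79 (SE 0.17). NUP160 and NUP37, which share an arm, rose by 1.73 (SE 0.18) and 1.23 (SE 0.17), and NUP43, of the other arm, by 1.5 (SE 0.24). NUP85, which lies on the same arm as NUP43, was the exception. NUP85 had 9.25, 9.34, 9.20 and 9.05 in the RWDD4 clones and 9.32, 9.20, 9.41 and 9.45 in the control clones, so its groups overlapped. Its difference of -0.13 (SE 0.10) did not pass (adjusted p 0.278), while after quantile normalization and after median centring it passed at -0.32 and -0.26. Of the complex's members that the name pattern does not reach, SEH1L rose by 1.54 (SE 0.31) and AHCTF1, which seeds pores on chromatin and is also called ELYS, by 1.89 (SE 0.20). With these, 7 of 8 measured genes of the complex rose.

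The window before the start of NUP107 is shown because NUP107 has the largest difference among the 6 NUP-named genes of the Y complex. It is the stretch chr12:68686728-68686977 of GRCh38.p14 (plus strand, RefSeq), the 250 bases before the start. Capitals mark matches, on either strand, to the patterns given further on: a CCAAT box, the core of the NRF1 palindrome and an ETS core.
before NUP107: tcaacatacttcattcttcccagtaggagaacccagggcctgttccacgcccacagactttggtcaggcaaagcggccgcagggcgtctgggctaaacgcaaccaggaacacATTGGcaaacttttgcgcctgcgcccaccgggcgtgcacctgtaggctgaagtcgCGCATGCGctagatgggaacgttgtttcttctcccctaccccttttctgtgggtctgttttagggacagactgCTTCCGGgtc

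In the inner ring, which anchors the channel proteins to the scaffold, 4 of 5 genes rose, in unequal size. NUP155 had 10.33, 9.55, 10.47 and 10.38 in the RWDD4 clones and 7.53, 8.37, 8.44 and 8.58 in the control clones. Clone 24 was lowest in its group and clone 2 in the other, and the groups stayed nearly 1 log2 unit apart. The difference of NUP155 was 1.95 (SE 0.25, adjusted p 0.000193). NUP205 rose by 1.83 (SE 0.18), whereas NUP188, its paralog in the ring, rose by 0.55 (SE 0.17) with a clone of each group crossing over (10.19 in RWDD4 clone 24, 10.24 in control clone 5). NUP188 did not pass without RWDD4 clone 5 (adjusted p 0.0542), without clone 6 (0.0570) or with the trend over gene span removed (0.122). NUP35 rose by 0.77 (SE 0.12). NUP93, which links the ring to the channel proteins, had 9.63, 9.37, 9.60 and 9.81 in the RWDD4 clones and 9.18, 9.46, 9.47 and 9.50 in the control clones, and its 0.20 (SE 0.12) did not pass.

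Among the channel proteins NUP58 led, with 8.15, 8.28, 8.41 and 8.54 in the RWDD4 clones and 6.66, 7.22, 7.27 and 7.58 in the control clones. The groups were clear of each other, at a difference of 1.16 (SE 0.17, adjusted p 0.000454). NUP98, an FG protein whose precursor also yields the Y complex subunit NUP96, rose by 0.87 (SE 0.19). NUP54, partner of NUP58 in the channel, rose by 0.50 (SE 0.16), but its mean of 4.15 fell short of 4.92, the median over all probe sets and arrays, and without any 1 of 4 clones (RWDD4 clones 24 and 6, control clones 2 and 4) or with the span trend removed (0.37, adjusted p 0.0616) it did not pass. NUP62CL, named for its likeness to the end of NUP62, had 5.12, 4.97, 5.30 and 5.30 in the RWDD4 clones and 4.81, 4.99, 4.76 and 5.14 in the control clones. Its groups overlapped, and 0.25 (SE 0.12) did not pass. NUP62CL passed at 0.32 after cyclic loess and without control clone 5, and lay at -0.05 with the span trend removed.

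All 4 members of the cytoplasmic filament class rose. NUP88 had 9.11, 8.62, 9.09 and 8.95 in the RWDD4 clones and 6.77, 7.26, 7.33 and 7.63 in the control clones, a difference of 1.69 (SE 0.18, adjusted p 8.14e-05). NUP214, which pairs with NUP88 at the cytoplasmic face, rose by 0.71 (SE 0.13), and its second, dimmer probe set by 0.36. RANBP2, the large filament protein that binds Ran and acts as a SUMO ligase, rose by 1.36 (SE 0.17); it has near-identical copies in the RGPD genes, and a probe set may read these as well. NUP42, which works with GLE1 in the release of mRNA, had 6.35, 6.72, 6.5 and 6.30 in the RWDD4 clones and 5.64, 6.19, 5.90 and 6.14 in the control clones. The gap between its groups was narrow and the difference 0.50 (SE 0.14, adjusted p 0.0140), and without control clone 2 and RWDD4 clone 24 together its 0.31 did not pass. Both basket genes also rose. NUP153, which anchors the basket, had 9.88, 9.85, 9.96 and 10.14 in the RWDD4 clones and 8.04, 8.57, 8.71 and 8.93 in the control clones, at a difference of 1.39 (SE 0.17, adjusted p 0.000142).

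NUP50, a mobile basket protein that helps importins release cargo, shares its start region with NUP50-DT. Of the 2 transcripts only NUP50 passed the test with all clones. NUP50 had 7.33, 7.19, 7.43 and 7.52 in the RWDD4 clones and 5.86, 6.36, 6.33 and 6.40 in the control clones. Every RWDD4 clone was above every control clone, at 1.13 (SE 0.13, adjusted p 0.000126). NUP50-DT had 6.29, 5.97, 6.09 and 5.87 in the RWDD4 clones and 5.86, 6.65, 6.45 and 6.30 in the control clones. Here control clone 2 was as low as the lowest RWDD4 clone, and the difference of -0.26 (SE 0.16) did not pass (adjusted p 0.205). Without control clone 2 NUP50-DT was lower by the test, at -0.41 (adjusted p 0.0231), and also after median centring (-0.39) and quantile normalization (-0.40). The difference between the 2 differences was not tested. The stretch between their starts is shown because it is the upstream sequence of both; it is chr22:45163782-45163924 of GRCh38.p14 (RefSeq), printed on the strand of NUP50 up to the more upstream of the 2 starts listed for that gene, with the NRF1 core and an ETS core in capitals.
between NUP50-DT and NUP50: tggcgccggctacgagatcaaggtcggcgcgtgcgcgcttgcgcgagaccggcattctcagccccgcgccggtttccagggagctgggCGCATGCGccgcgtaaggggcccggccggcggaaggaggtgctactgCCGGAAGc

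The membrane ring genes did not pass in either direction. NUP210, a protein that spans the nuclear membrane, had 9.57, 9.55, 9.21 and 9.55 in the RWDD4 clones and 9.40, 9.68, 9.52 and 9.77 in the control clones. NUP210L, its relative, had 3.94, 3.74, 4.06 and 3.98 in the RWDD4 clones and 3.94, 4.02, 4.10 and 4.15 in the control clones, low values in both. Both differences were -0.12 (SE 0.12 and 0.10), with overlapping groups. With the trend over gene span removed they passed as lower, at -0.43 and -0.42, and NUP210L also did after median centring (-0.25). NDC1, another pore protein of the membrane that the name pattern does not reach, rose by 1.62 (SE 0.19).

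**Figure D2:**
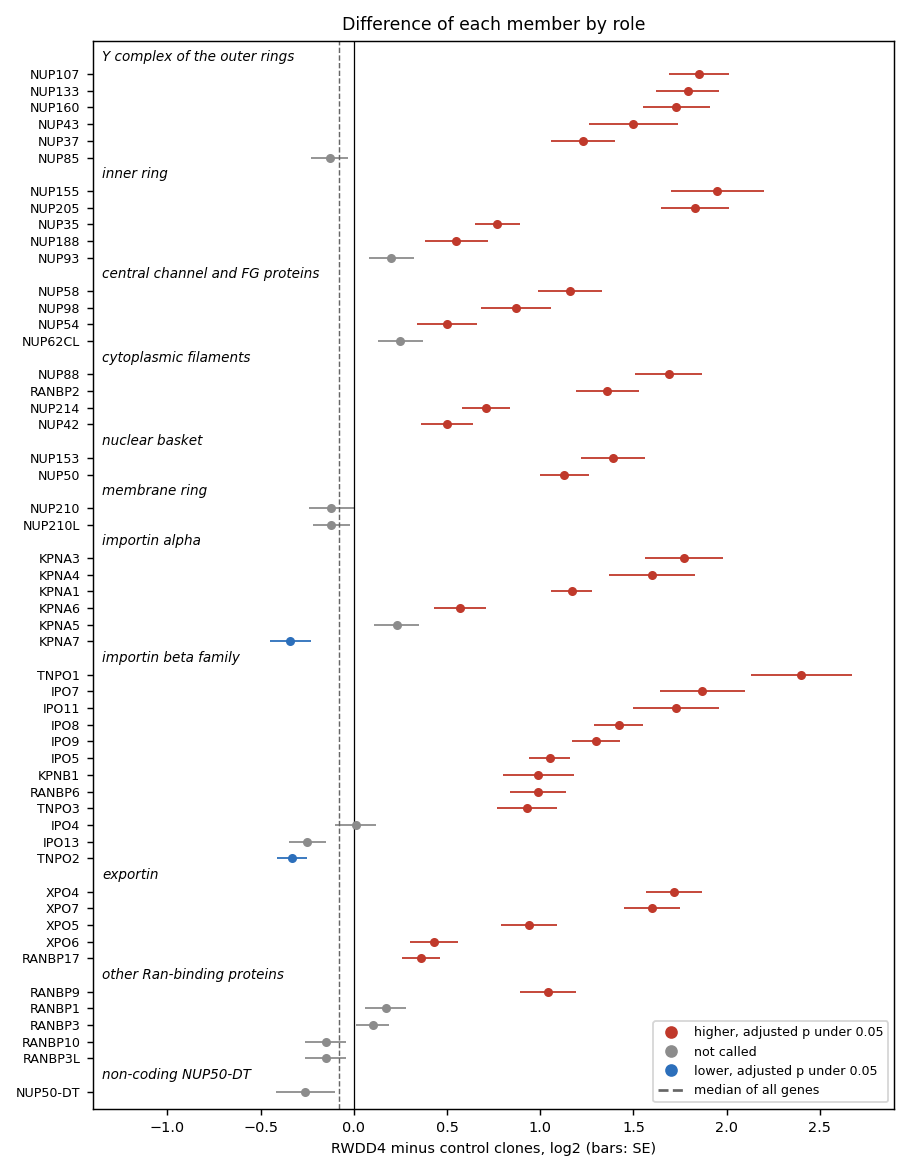
Difference of RWDD4 minus control clones (x axis, log2; bars are the SE) for each member, grouped by role. Red marks the 37 members that rose, blue the 2 that fell and grey the 13 not called, and the dashed line is the median of all genes, -0.08. Within the Y complex, NUP85 alone lies left of 0.

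Importin alpha proteins are adaptors that read the classical nuclear localisation signal and hand cargo to importin beta. Of 6 measured genes 4 rose and 1 fell. KPNA3 had 8.54, 8.73, 8.85 and 8.66 in the RWDD4 clones and 6.22, 7.29, 6.97 and 7.23 in the control clones. Even the highest control clone lay more than 1 unit below the lowest RWDD4 clone, and KPNA3 rose by 1.77 (SE 0.21), 3.41-fold (adjusted p 0.000122). KPNA4, its nearest relative, rose by 1.60 (SE 0.23). KPNA1 and KPNA6, of another branch of the family, rose by 1.17 (SE 0.11) and 0.57 (SE 0.14), while KPNA5 of that branch, at 0.23 (SE 0.12), did not pass with all clones (adjusted p 0.141). KPNA5 was 5.87 in RWDD4 clone 17 and 6.32 to 6.37 in the other RWDD4 clones, against 5.87 to 6.06 in the control clones, and without clone 17 it passed at 0.34 (adjusted p 0.0169). KPNA6 did not pass with the trend over gene span removed (0.29). KPNA7 had 3.79, 4.05, 4.03 and 4.16 in the RWDD4 clones and 4.46, 4.43, 4.18 and 4.33 in the control clones. All of these values are dim, below that same median, and the groups nearly met. KPNA7 fell by 0.34 (SE 0.11, adjusted p 0.0236), and did not pass without RWDD4 clone 17 (adjusted p 0.0658), without control clone 2 (0.0505) or 3 (0.0536), after quantile normalization (0.0575) or after cyclic loess (0.0791).

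Importin beta proteins bind Ran and the pore itself. Of 12 measured genes 9 rose and 1 fell. KPNB1, importin beta, which carries importin alpha with its cargo, rose by 0.99 (SE 0.19). It ranged from 12.10 to 12.34 among RWDD4 clones, against 10.55 to 11.50 among control clones. IPO7 and its paralog IPO8, which import ribosomal and signalling proteins, rose by 1.87 (SE 0.23) and 1.42 (SE 0.13). IPO11, an importer of ubiquitin-conjugating enzymes, rose by 1.73 (SE 0.23), with RWDD4 clones between 7.09 and 8.25, a wide spread for this group, and control clones between 5.52 and 6.32. IPO9, an importer of histones, rose by 1.30 (SE 0.13). IPO5 and its close relative RANBP6 rose by 1.05 (SE 0.11) and 0.99 (SE 0.15). The second and dimmer probe set of IPO5 differed by 0.40 and did not pass (adjusted p 0.0640). TNPO3, which imports splicing factors rich in serine and arginine, rose by 0.93 (SE 0.16). IPO4 lay at 0.01 (SE 0.11), with its sign turned to -0.11 after quantile normalization and after median centring and to -0.03 after cyclic loess. IPO13, which moves cargo both ways, lay at -0.25 (SE 0.10, adjusted p 0.0601), and passed as lower after quantile normalization (-0.46), median centring (-0.38) and cyclic loess (-0.34) and without control clone 4 (-0.31).

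The transportins TNPO1 and TNPO2, close paralogs that import RNA-binding proteins, held the largest rise of all members and 1 of the 2 falls. TNPO1 had 9.71, 9.24, 9.78 and 9.82 in the RWDD4 clones and 6.33, 7.43, 7.43 and 7.76 in the control clones. Control clone 2 was lowest by more than 1 unit, and even the highest control stayed well below the lowest RWDD4 clone. TNPO1 rose by 2.40 (SE 0.27), 5.29-fold (adjusted p 0.000103), and by 2.10 without control clone 2. TNPO2 had 10.26, 10.41, 10.30 and 10.32 in the RWDD4 clones and 10.63, 10.58, 10.70 and 10.69 in the control clones. Both groups were tight and did not overlap. TNPO2 fell by 0.33 (SE 0.08), which is 1.25-fold (adjusted p 0.00809), and it passed as lower in each of the 18 other settings run, the axis covariate aside. The difference between the paralogs' differences was not tested.

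The upstream windows of both transportins are shown because the pair moved apart. They are the 250 bases before the more upstream of the 2 starts that RefSeq lists for each gene, chr5:72816411-72816660 (plus strand) and chr19:12723933-12724182 (minus strand) of GRCh38.p14. Capitals mark an E2F core and a CCAAT box in TNPO1 and a CCAAT box in TNPO2.
before TNPO1: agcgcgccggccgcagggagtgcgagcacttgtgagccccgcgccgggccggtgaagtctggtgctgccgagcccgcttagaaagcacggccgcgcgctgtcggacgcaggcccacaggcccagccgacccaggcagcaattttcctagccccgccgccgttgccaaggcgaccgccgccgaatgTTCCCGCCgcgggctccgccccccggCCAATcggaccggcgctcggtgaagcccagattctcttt
before TNPO2: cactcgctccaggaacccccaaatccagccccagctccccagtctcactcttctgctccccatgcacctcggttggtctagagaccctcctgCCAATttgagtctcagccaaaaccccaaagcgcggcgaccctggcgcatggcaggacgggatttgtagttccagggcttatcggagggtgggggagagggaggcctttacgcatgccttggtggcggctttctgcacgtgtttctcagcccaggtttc

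**Figure D3:**
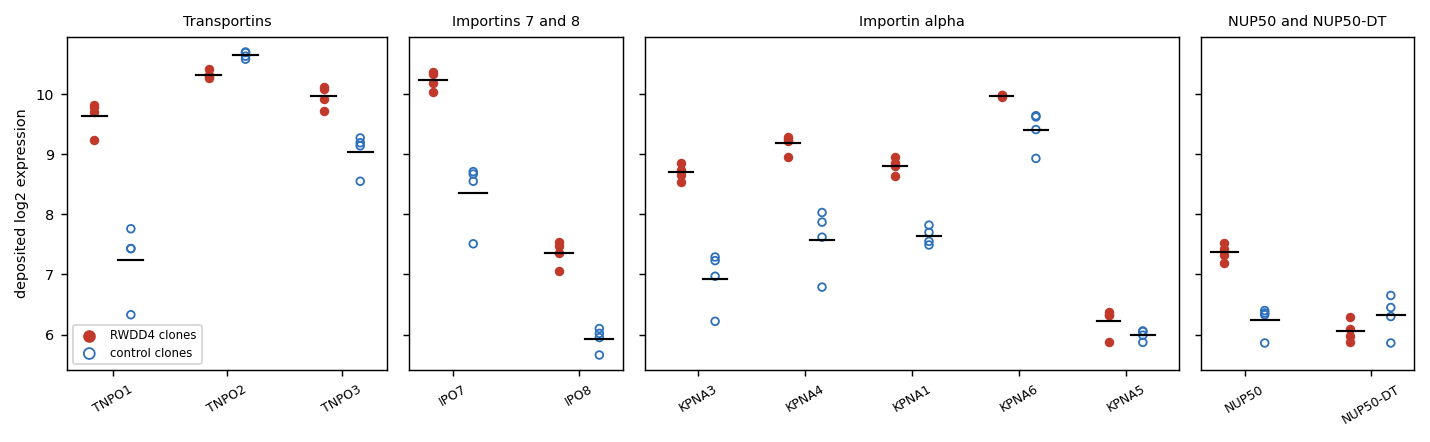
Deposited log2 expression (y axis) of related genes, with filled red points for the 4 RWDD4 clones left of open blue points for the 4 control clones and black lines at the group means. Levels compare clones within a gene, not 1 gene with another. TNPO1 averaged 9.64 in the RWDD4 clones and 7.24 in the control clones, TNPO2 10.32 and 10.65.

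All 5 measured exportins that the name pattern reached rose. XPO4, which exports a translation factor of the eIF5A type, had 9.01, 8.60, 9.0 and 8.82 in the RWDD4 clones and 6.72, 7.27, 7.26 and 7.29 in the control clones. XPO4 rose by 1.72 (SE 0.15), 3.30-fold (adjusted p 5.98e-05), and its groups were more than 1 unit apart. XPO7, an exportin of broad cargo, rose by 1.60 (SE 0.15), and XPO5, which exports microRNA precursors, by 0.94 (SE 0.15). XPO6, the exportin of actin, rose by 0.43 (SE 0.13), with RWDD4 clone 24 at 10.21 and control clone 5 at 10.23. It did not pass without RWDD4 clone 6 (adjusted p 0.0606) or with the span trend removed, where it lay at 0.12. RANBP17, a relative of XPO7, had 6.00, 5.92, 6.23 and 6.24 in the RWDD4 clones and 5.81, 5.71, 5.66 and 5.76 in the control clones. It rose by 0.36 (SE 0.10, adjusted p 0.0129) and missed the threshold under quantile normalization (0.26), under median centring (0.24) and with the span trend removed (0.21).

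Of the 5 other Ran-binding proteins 1 rose (20%, against 25.1% of all genes). RANBP9, which despite its name is a part of the CTLH ubiquitin ligase, had 9.11, 9.10, 9.21 and 9.39 in the RWDD4 clones and 7.73, 8.45, 8.14 and 8.34 in the control clones, at a difference of 1.04 (SE 0.15, adjusted p 0.000355). RANBP10, its paralog in that ligase, had 7.85, 7.93, 7.72 and 7.86 in the RWDD4 clones and 7.89, 8.25, 7.82 and 7.99 in the control clones, so its groups overlapped. Its -0.15 (SE 0.11) did not pass, and it passed as lower after quantile normalization (-0.43), median centring and cyclic loess (-0.27 each) and with the span trend removed (-0.45). RANBP1, which helps Ran to hydrolyse GTP, and RANBP3, a cofactor of export, lay at 0.17 (SE 0.11) and 0.10 (SE 0.09). RANBP3L, which ranged from 3.24 to 3.42 among RWDD4 clones and from 3.27 to 3.73 among controls, lay at -0.15 (SE 0.11). With the span trend removed RANBP1 passed as higher (0.35) and RANBP3L as lower (-0.40).

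The clones of a group were not alike. Over all 52 members the mean level was 8.30, 8.18, 8.41 and 8.41 in RWDD4 clones 17, 24, 5 and 6. It was 7.13, 7.56, 7.46 and 7.65 in control clones 2, 3, 4 and 5. Control clone 2 was the lowest control in 38 of the 52, and RWDD4 clone 24 the lowest of its group in 32. Over the 37 members that rose, the means were 8.57, 8.42, 8.72 and 8.71, and 6.93, 7.49, 7.39 and 7.60. The gap between the groups over these 37 follows from how they were chosen. Control clone 2 was the lowest control in 34 of these 37 genes, and RWDD4 clone 24 the lowest of its group in 27. The SD within a group, taken over all 52 members, had a median of 0.17 in the RWDD4 clones and 0.27 in the control clones. Over all genes these medians were 0.14 and 0.17. Without control clone 2 the count of members that rose was 36, beside 23.5% of all genes. Without both clones it was 35, beside 22.9% of all genes.

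Genes of the same machinery outside the name pattern were counted in 5 lists. Their counts stand beside 25.1% of all genes that rose and 21.6% that fell. Of 7 other pore genes 4 rose and none fell (median 0.58): AHCTF1, NDC1, SEH1L and GLE1, an activator of mRNA release, at 0.58 (SE 0.11). POM121 and POM121C, near-identical genes whose probe sets may not tell them apart, lay at 0.13 and 0.10. RAE1, also of this list, lay at 0.23 (SE 0.09, adjusted p 0.0672) and did not pass. Of 5 genes of the Ran cycle 1 rose and 2 fell. CSE1L, the exportin that returns importin alpha to the cytoplasm, had 11.45, 11.51, 11.88 and 11.75 in the RWDD4 clones and 8.11, 9.61, 9.73 and 9.95 in the control clones, a difference of 2.30 (SE 0.33, adjusted p 0.000370). RANGAP1, which switches Ran off at the cytoplasmic face, had 9.65, 9.80, 9.48 and 9.63 in the RWDD4 clones and 10.30, 10.12, 10.18 and 10.09 in the control clones, without overlap. RANGAP1 fell by 0.53 (SE 0.10, adjusted p 0.00130), and RANGRF, a Ran-binding protein, by 0.57 (SE 0.14). RANGRF did not pass with the span trend removed (-0.29).

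In the mRNA export list 8 of 15 genes rose and 2 fell (median 0.49). THOC1 and THOC2, subunits of the THO complex that packs new transcripts for export, rose by 2.21 (SE 0.34) and 1.79 (SE 0.23), while THOC6 of the same complex fell by 0.48 (SE 0.10). NXT1, partner of the export receptor, fell by 0.36 (SE 0.11), which did not pass without control clone 2 (-0.27) or RWDD4 clone 6 (-0.30). With the span trend removed neither fall passed (THOC6 -0.20, NXT1 -0.08). In the list of the lamina and nuclear envelope 4 of 11 rose and 4 fell (36.4% each, median -0.09), against 25.1% and 21.6% of all genes. The inner membrane genes LEMD3 and TMPO rose by 1.08 (SE 0.12) and 0.93 (SE 0.18), and LMNA, which codes for the A-type lamins, and LEMD2 fell by 0.39 (SE 0.11) and 0.42 (SE 0.09). In the SUMO pathway, which modifies RANGAP1 at the pore, 5 of 7 rose (median 0.99). The SUMO proteases SENP1, SENP5 and SENP7 rose by 1.72 (SE 0.18), 1.59 (SE 0.26) and 0.99 (SE 0.15), and the modifier SUMO2 by 0.51 (SE 0.09). SENP7 was low, with means of 4.13 in the RWDD4 clones and 3.15 in the control clones.

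**Figure D4:**
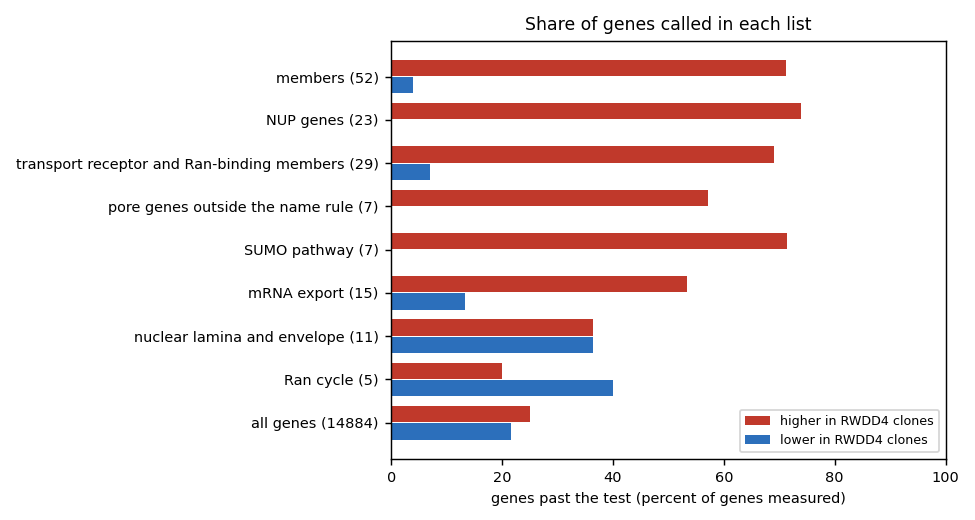
Share of measured genes (x axis, percent) that were higher (red) or lower (blue) in the RWDD4 clones at an adjusted p under 0.05, for the members, their nucleoporin and receptor parts, the 5 lists and all genes, with the number measured in brackets. The members stand at 71.2% higher and 3.85% lower, all genes at 25.1% and 21.6%.

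Gene span and level were set beside the differences. Members are long genes: the median genomic span was 70427 bases in the members that rose, 60657 in the other members and 26723.5 over all protein-coding genes. Across 11916 protein-coding genes Spearman rho between difference and span was 0.40, and across the 51 protein-coding members it was 0.19. These are correlations across genes read on the same arrays, and genes are not independent replicates. With the trend over span taken out of every array, 33 members rose and 6 fell, with 32 of the 37 risen genes shared. Of all genes 3737 (25.1%) rose and 3271 fell in this setting. The members' median was 0.71, against 0.01 over all genes. The difference did not follow the members' mean level (rho -0.01). The balance of all calls moved with the scaling, with 3741 genes higher and 3214 lower as deposited, 3229 and 4332 after quantile normalization, and 3307 and 5765 after median centring, which moved the median of all genes to -0.21. Under these 2 scalings 36 members rose in each case, all among the 37, and 5 and 7 fell.

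**Figure D5:**
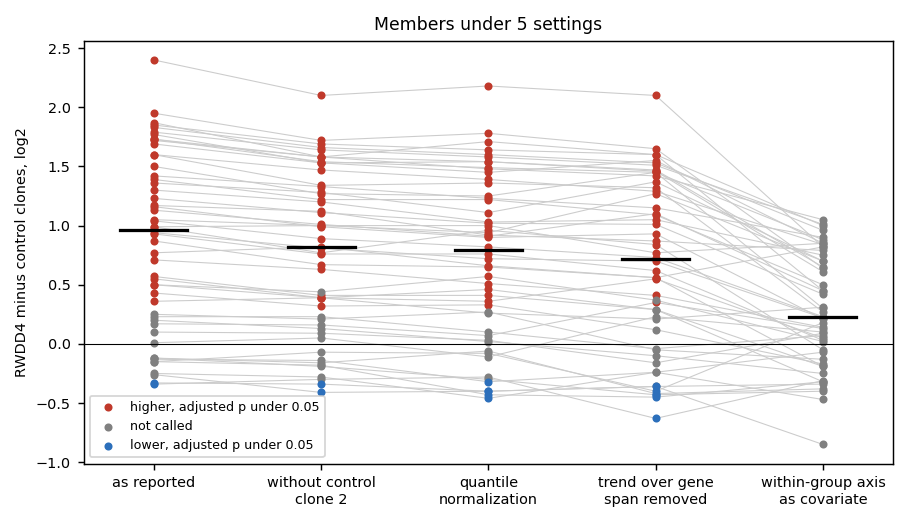
Difference of RWDD4 minus control clones (y axis, log2) of the 52 members under 5 settings, with grey lines joining each gene and black bars at the medians. Red points rose, blue points fell and grey points were not called. The median was 0.97 as reported, 0.81 without control clone 2, 0.79 after quantile normalization, 0.71 with the span trend removed and 0.22 once that axis of clone differences was a covariate, where no member was called.

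The upstream windows of 45 members, 33 of them risen, were searched on both strands for short patterns, none of which contains another. The windows were the 250 bases before each RefSeq start. The ETS core CCGGAAG was in 10 of the 33 risen members (30.3%), 2 of the 12 others (16.7%) and 14% of all 15843 protein-coding genes with a window. The CCAAT box was in 15 (45.5%), 7 (58.3%) and 40.2%, and the E2F core TTCCCGCC in 3 (9.09%), 2 (16.7%) and 4.6%. The NRF1 core CGCATGCG was in 3 risen members (9.09%), IPO11, NUP107 and NUP50, in 2 others (16.7%), RANBP3 and NUP50-DT, and in 2.91% of all these genes. NUP50 and NUP50-DT hold it in the same stretch, which also has an ETS core. These matches therefore count among both the risen and the other members, and NUP50-DT is non-coding. The YY1 core AAGATGGCG was in 1 risen member (NUP188) and the TATA box TATAAA in 2, against 0.972% and 11.9% of all these genes. Such matches are descriptions of letters and do not show that a factor binds.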

How the data were processed

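The authors deposited log2 values, 1 per probe set and array, for 8 arrays; per the submitters' processing notes the tools were Partek and RMA, with no version, settings, build or batch given in the sources used here. RMA, as usually run, corrects background and normalizes between arrays, which tends to shrink folds of dim genes. Of 53617 probe sets 16098 had exactly 1 symbol in the platform annotation and none had several, for 14884 genes. Each gene was read from its brightest probe set, by mean level on all 8 arrays (3 members had more than 1). RWDD4 minus control clones was fitted over all genes with lmFit and eBayes (limma 3.58.1, R 4.3.3), two-sided, Benjamini-Hochberg adjusted. Depth is not defined for arrays; the number of arrays limits precision, and no background signal was used here. Gene span came from RefSeq (GRCh38.p14). For RANBP2 the listed span of 1122820 bases was used as given and was not checked. Its difference was 1.36 as reported and 1.37 with the span trend removed. A simulation of this comparison gave only 200 of 14884 genes a change, either 0.5 or 1 on the log2 scale. The test found 44% of the smaller changes and 92% of the larger ones, with 9 false among its 145 calls. On the real arrays 46.7% of genes were called in either direction, a far larger share. The simulated rates therefore cannot be taken as the rates of the reported fit. In each role class the genes with the largest and smallest differences are given per clone, and from each list up to 4 called genes. The members, lists and alternatives were chosen with earlier results of these data known. Alternatives were a trended or robust eBayes, array weights, the mean over probe sets or each probe set alone, a filter on dim genes, quantile normalization, median centring, cyclic loess, removal of the lowess trend over gene span, the within-group axis as a covariate, and each clone left out.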

Additional observations from a re-analysis of the deposited data

Results flagged for a closer look

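In 12 of the 142 groups of 4 clones tested, 2 for each named gene, 1 clone stood apart from the other 3 by a gap past Dixon's limit for the group's range, which chance passes in about 1 of 20 groups. In 7 of the 12 the clone was control clone 2, each time below the other controls. It had IPO7 at 7.51 (others 8.55 to 8.71), KPNB1 at 10.55 (11.36 to 11.50), NUP107 at 5.73 (6.34 to 6.42), NUP50 at 5.86 (6.33 to 6.40), NUP93 at 9.18 (9.46 to 9.50), XPO4 at 6.72 (7.26 to 7.29) and SENP7 at 2.92 (3.20 to 3.25). In the RWDD4 group, KPNA5 was low in clone 17 at 5.87 (others 6.32 to 6.37), NUP155 low in clone 24 at 9.55 (10.33 to 10.47), NUP210 low in clone 5 at 9.21 (9.55 to 9.57) and NXT1 low in clone 6 at 8.42 (8.66 to 8.70). RANBP3 was high in control clone 5, at 10.67 (others 10.52 to 10.53).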

How the results depend on the processing

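Of the 37 members that rose, 31 passed in each of the 18 settings run on genes apart from the axis covariate, and the exceptions were KPNA6, NUP188, NUP42, NUP54, RANBP17 and XPO6. With the axis as a covariate 0 members rose and 0 fell by limma, and over all genes 0 rose and 1 fell. At an unadjusted p under 0.05 by limma 19 members were higher and 2 lower. The share over all genes was not taken for these counts, so they have no background to be set against. The members' median was 0.22, against -0.03 over all genes. There KPNA6, NUP98, XPO6, KPNB1, NUP188, NUP62CL, NUP93 and SEH1L turned to -0.19, -0.19, -0.17, -0.05, -0.32, -0.13, -0.25 and -0.25, RANBP3L, RANGRF and NXT1 to 0.18, 0.01 and 0.15, and the medians of the channel class, the other pore genes and the Ran cycle to -0.05, -0.04 and 0.01. With the span trend removed the members' median was 0.71, and 6 members and 3271 of all genes fell. In that setting KPNA5, NUP62CL, NUP93 and RANBP3 turned to -0.04, -0.05, -0.10 and -0.16. The medians of the other Ran-binding proteins, the lamina list and all genes turned to -0.16, 0.01 and 0.01. The members that fell numbered 1 with dim genes left out, 5 after quantile normalization and 7 after median centring. Of all genes tested 2941, 4332 and 5765 fell in these settings. Without control clone 2 and RWDD4 clone 24 together, an alternative chosen after seeing the data, 1 member and 2486 of all genes fell. Leaving out each clone in turn gave 1 to 3 members that fell and 34 to 38 that rose. In these fits 22.7% to 25.1% of all genes rose, and 2258 to 3031 genes fell. IPO4 turned to -0.11 after quantile normalization and median centring, and -0.03 after cyclic loess, and ranged from -0.04 (without RWDD4 clone 17) to 0.12 (without control clone 2 and RWDD4 clone 24) as clones were left out, with -0.02 without control clone 3 or 4. After median centring RANBP3 and the median of its class turned to -0.02. For these changes the cause was not tested. No paired analysis was run, because the labels do not pair clones between the groups. The lack of a background signal limits what can be said of the 4 dimmest members, KPNA7, NUP210L, NUP54 and RANBP3L.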
